A study of Homo sapiens with 3 samples.

Results

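Transcript levels of 39 genes of the amino acid response were examined in 3 lines of HaCaT, an established human keratinocyte line. The genes were chosen by symbol from the 57773 rows of the deposited table, and all 39 were found. They comprise 18 cytosolic aminoacyl-tRNA synthetases, 7 enzymes of amino acid synthesis and folate metabolism, and 5 amino acid transporters. The other 9 are regulators and stress genes of the ATF4 pathway. For short these 9 are called regulators below, although CHAC1 encodes an enzyme and STC2 a secreted glycoprotein. The choice was made with earlier results of these data known, so the values below are a description of these members and no test was made on them. All 3 lines express the oncogenic mutant HRasG12V, per the labels. On this background 1 line carries an empty vector, 1 carries wild-type THG-1 and 1 carries THG-1 S264A, in which a serine of THG-1 (the product of TSC22D4) is replaced by alanine. The title of the series concerns THG-1 and inflammatory signalling through IL-1 and NF-κB. The culture medium was DMEM with serum, and 1 RNA library was sequenced for each line. Whether a line is a clone or a pool is not stated. There were no replicates, so a difference between lines cannot be told apart from a difference between cultures, and no p-value is given.

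Aminoacyl-tRNA synthetases load each amino acid onto its tRNA and so supply the ribosome. When amino acids run short or the endoplasmic reticulum is stressed, kinases phosphorylate the initiation factor eIF2, general translation falls, and the mRNA of the transcription factor ATF4 is translated more. ATF4 acts as a dimer with C/EBP proteins on genes of amino acid uptake, amino acid synthesis and tRNA charging, and on stress genes such as DDIT3 and TRIB3. Because ATF4 is controlled largely at translation, its mRNA level need not follow its protein level, which was not measured here.

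The depth, recovered from the steps of the deposited values, ranged from 12733479 reads with wild-type THG-1 to 32055052 with empty vector. Levels are in RPKM, reads per kilobase of gene scaled to the size of the library. TSC22D4 was at 7.98 RPKM with empty vector, 64.9 with wild-type THG-1 and 51.1 with S264A, and HRAS at 23.9, 27.8 and 22.4 RPKM. All 8 keratinocyte markers were detected, with sums of 979, 1117 and 1276 RPKM in the same order of lines. These markers did not share a direction, with KRT14 at 119, 287 and 382 RPKM and KRT5 at 367, 240 and 329 RPKM. The 7 fibroblast markers summed to 0.557 to 0.825 RPKM, with PDGFRA and LUM at 0. The 6 melanocyte markers summed to 1.15 to 2.09 RPKM with TYR at 0, and the 4 endothelial markers in the table to 0.374 to 1.66 RPKM with TEK at 0. The 7 immune markers summed to 1.09, 5.49 and 1.88 RPKM, nearly all of it CD68, with PTPRC at 0.00838 RPKM or less. In bulk RNA a lower level can come from fewer expressing cells or from less RNA per cell, and these cannot be told apart.

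The DNA element through which ATF4 and C/EBP dimers act has the core TGATGNAA. It was searched on both strands of RefSeq promoter windows (GRCh38.p14, 300 bases, from 250 before to 50 after a transcription start). Windows were found for 31 of the 39 genes, the synthetases under their current symbols such as AARS1. DARS, LARS, VARS, YARS, PSPH, SHMT2, ALDH1L2 and SLC7A11 had none. The core was present in at least 1 window of 12 of these 31 genes, or 38.7%, against 1217 of 27305 genes in the whole table, or 4.46%. By windows it was present in 12 of 47 (25.5%) against 1270 of 35116 (3.62%). The members were chosen by name as genes of the amino acid response and the ATF4 pathway. A higher share of an ATF4 element among them can follow from that choice, and no test was made on it. A match is a description of the letters and not a measured binding site. The matches follow, with the core in capitals, for the members with a match that differed most between lines, and for MARS and CEBPG, which differed little.

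AARS: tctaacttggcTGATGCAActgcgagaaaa
NARS: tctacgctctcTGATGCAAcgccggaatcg
CHAC1: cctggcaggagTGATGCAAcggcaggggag
ASNS: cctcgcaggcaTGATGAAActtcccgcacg
SLC7A1: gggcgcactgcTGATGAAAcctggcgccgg
MARS: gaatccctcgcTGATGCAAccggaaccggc
CEBPG: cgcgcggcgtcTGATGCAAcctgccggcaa

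Each sequence is given 5′ to 3′ on the strand that carries the core. The AARS sequence lies at chr16:70289675-70289704 (plus strand), with the core starting 187 bases before the start of the gene. That of NARS lies at chr18:57621804-57621833 (minus strand), 15 bases into the transcribed part. The CHAC1 sequence is at chr15:40953251-40953280 (minus strand) and that of ASNS at chr7:97872458-97872487 (minus strand), with the cores 209 and 68 bases before the start. The SLC7A1 sequence is at chr13:29595663-29595692 (minus strand), 8 bases into the transcribed part. Those of MARS and CEBPG are at chr12:57488053-57488082 (minus strand) and chr19:33374060-33374089 (plus strand), 4 and 42 bases before the start. CARS, GARS, IARS, TARS and SLC3A2 also held a match, and 8 of the 12 matches had the form TGATGCAA. CHAC1, AARS, SLC7A1, ASNS and NARS, which share the core, did not differ between lines in the same direction, as the values below show.

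**Figure D1:**
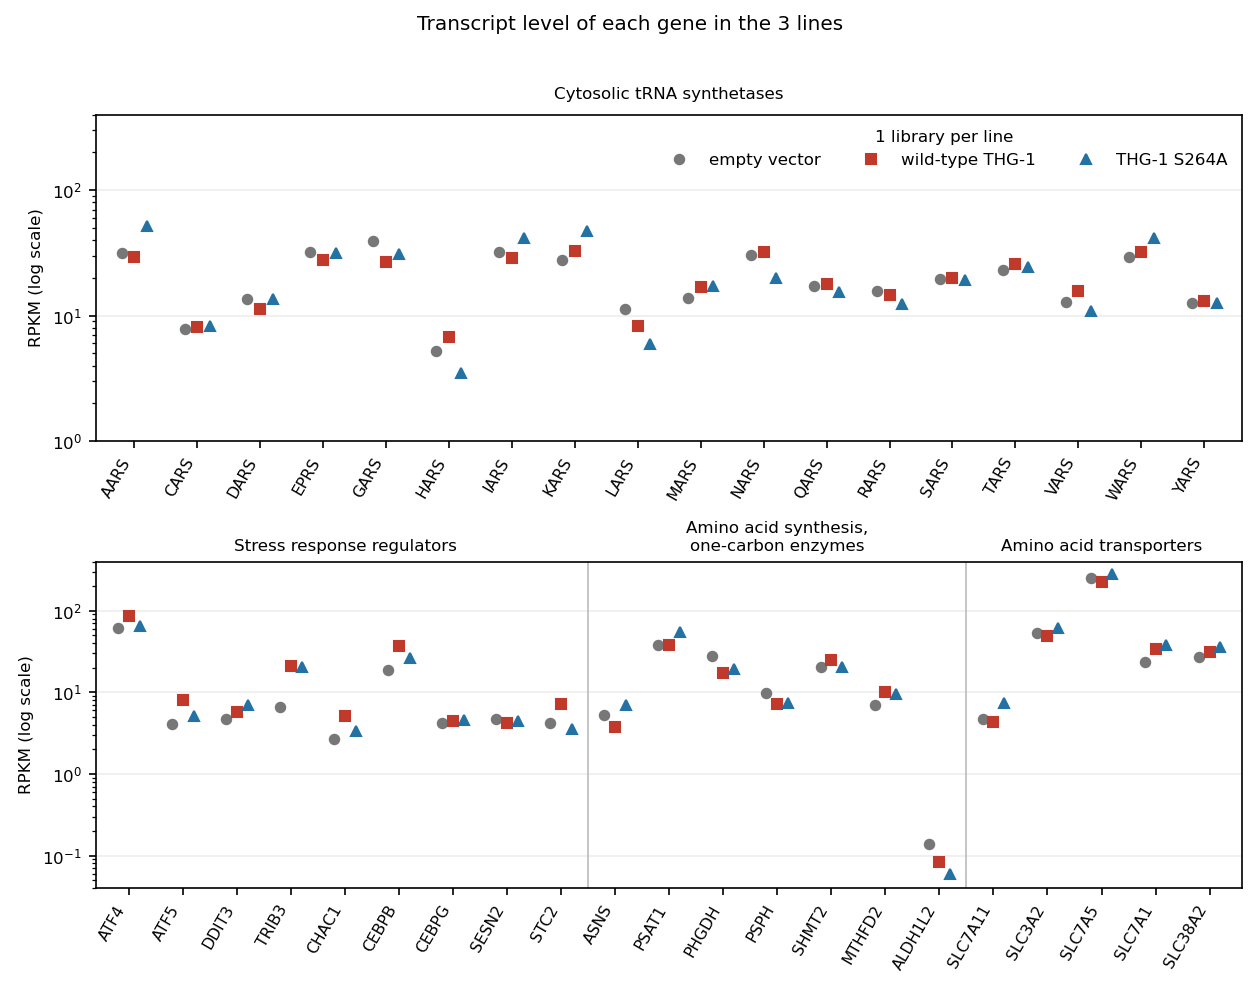
RPKM of the 39 genes on a log axis, by role, with 1 point per line (grey circle, empty vector; red square, wild-type THG-1; blue triangle, S264A) and 1 library per line. SLC7A5 stands highest, at 227 to 280 RPKM, and ALDH1L2 lowest, below 0.14 RPKM in every line, and the largest gap between lines is that of TRIB3.

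The regulators were the group that differed most in the wild-type THG-1 line. ATF4 was at 61.8 RPKM with empty vector, 86.7 with wild-type THG-1 and 64.1 with S264A, the highest level among the 9. Only the wild-type line stood apart, at 1.40 times the empty-vector level (95% counting interval 1.34 to 1.47). S264A was at 1.04 times that level (0.987 to 1.09), and at 0.739 times the wild-type level (0.699 to 0.782). The intervals are exact Clopper-Pearson intervals from the recovered reads, and they cover counting error only.

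A gene was counted as higher or lower at a fold of at least 1.5 on the scale of RPKM + 1 (log2 0.58), among genes at or above 1 RPKM in either library. ATF4 was under this threshold in all 3 comparisons, with log2 differences of 0.48 between wild type and empty vector, 0.05 between S264A and empty vector and -0.43 between S264A and wild type. The value of 0.05 became -0.15, and that of 0.48 became 0.22, under scaling of the libraries to 1 common upper quartile. That quartile was taken in each library over its own genes above 0 RPKM, and these sets of genes differ between the libraries. Of the 9 regulators, 5 were counted as higher with wild-type THG-1 than with empty vector and none as lower. CHAC1 and STC2 were among these 5. Among all 11993 genes compared, 11.0% were counted as higher and 6.72% as lower. The median log2 difference was 0.65 for the regulators and -0.01 for all genes. Under all 7 alternative settings the regulators' median stayed between 0.41 and 0.76. The count of 5 regulators fell to 2 with a pseudocount of 5, to 3 with upper-quartile scaling and to 4 with equal-sum scaling. It stayed at 5 under the other settings.

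TRIB3, which encodes a pseudokinase that restrains ATF4 and CHOP signalling, was at 6.62 RPKM with empty vector, 20.8 with wild-type THG-1 and 20.3 with S264A. Both THG-1 lines were high, 3.13 times (2.82 to 3.49) and 3.06 times (2.76 to 3.40) the empty-vector level. They differed from each other by less than counting error, with a ratio of 0.978 (0.886 to 1.08). TRIB3 was the only regulator counted as higher with S264A, and no regulator was counted as lower, where 8.56% of all 12010 genes were counted as higher and 3.97% as lower. It had the largest difference of all members in both comparisons with the empty vector, which share that control library.

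ATF5, a relative of ATF4 under similar translational control, stood at 4.11 RPKM with empty vector, 8.16 with wild type and 5.07 with S264A, the order of lines used from here on. The wild-type level was 1.99 times (1.70 to 2.31) that of empty vector, while S264A was at 1.23 times (1.04 to 1.46). CEBPB, which encodes a C/EBP partner of ATF4 that also acts in inflammatory transcription, was at 18.7, 36.9 and 26.5 RPKM. The wild-type line stood at 1.97 times (1.80 to 2.15) empty vector, and the S264A line at 1.41 times (1.28 to 1.56). For both genes the S264A line lay between the other lines.

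CHAC1, which encodes an enzyme that degrades glutathione, was at 2.71, 5.17 and 3.37 RPKM, on 178, 135 and 97 reads. The wild-type level was 1.91 times (1.52 to 2.40) that of empty vector, and the S264A interval of 0.962 to 1.60 included 1. STC2, which encodes the secreted glycoprotein stanniocalcin-2, was at 4.24, 7.24 and 3.56 RPKM. It was 1.71 times (1.53 to 1.90) the empty-vector level with wild-type THG-1 and 0.840 times (0.734 to 0.958) with S264A. Between wild type and empty vector, upper-quartile scaling put the log2 differences of CHAC1 (0.73) and STC2 (0.65) at 0.53 and 0.43, under the 1.5-fold threshold. STC2 was at 0.52 with scaling to an equal sum.

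DDIT3, which encodes the stress factor CHOP, was at 4.69, 5.80 and 7.08 RPKM, on 177, 87 and 117 reads. It was the regulator with the fewest reads in the wild-type line. Its ratio to empty vector was 1.24 with wild-type THG-1 (0.946 to 1.61) and 1.51 with S264A (1.19 to 1.92), a log2 difference of 0.51 and under the threshold on the RPKM + 1 scale. CEBPG, a partner of ATF4, was at 4.19, 4.43 and 4.54 RPKM, and SESN2, which encodes a leucine sensor that restrains mTORC1, at 4.69, 4.18 and 4.46 RPKM. For both genes every ratio between lines had an interval that included 1. SESN2 was the lowest regulator in the comparison of wild type with empty vector, with a ratio of 0.893 (0.750 to 1.06).

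In the direct comparison of S264A with wild-type THG-1, ATF5 and STC2 were counted as lower and no regulator as higher. The ratio was 0.621 (0.519 to 0.743) for ATF5 and 0.492 (0.427 to 0.566) for STC2. Of all 12069 genes compared, 6.65% were counted as higher and 7.13% as lower. ATF5 lay just past the threshold, at a log2 difference of -0.59, and CHAC1, at -0.50, just short of it. Upper-quartile scaling put ATF5 at -0.55 and equal-sum scaling at -0.49. The regulators' median was -0.43, between -0.46 and -0.26 under all settings tried, and that of all genes 0.02.

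**Figure D2:**
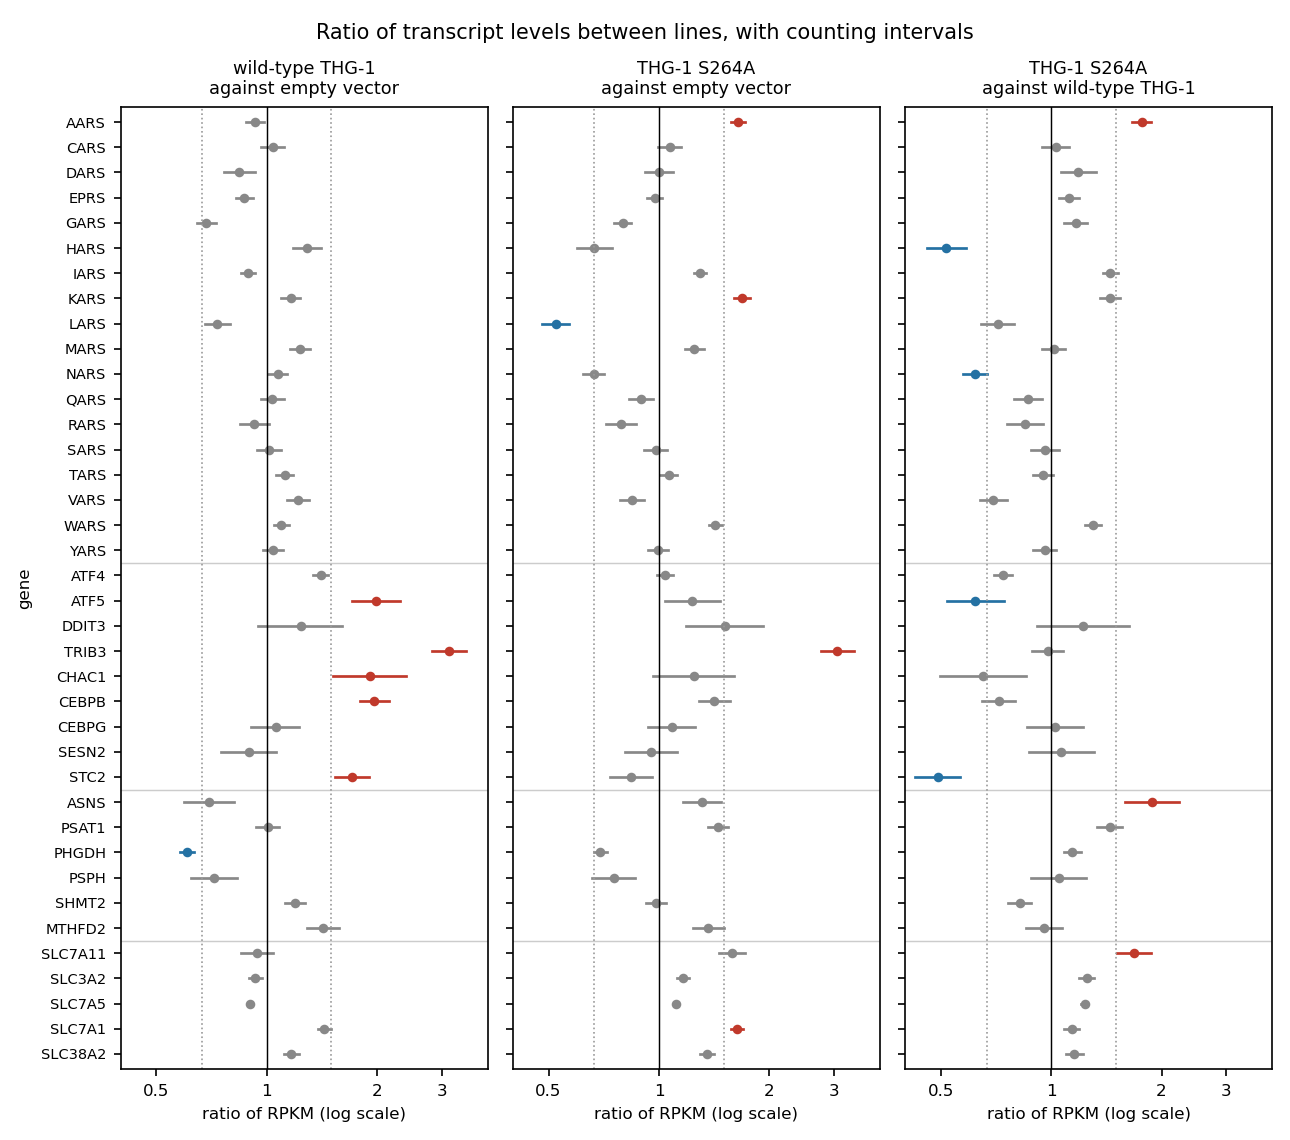
Ratio of RPKM between lines (log axis) for 38 genes, in 3 panels for the 3 comparisons, with bars for the 95% counting interval; red and blue mark genes counted as higher and lower on the RPKM + 1 scale, and dotted lines a plain ratio of 1.5 in either direction. TRIB3 stands at about 3 against empty vector in both THG-1 lines, and the coloured genes of the synthetase block (top) lie on both sides of 1.

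The 18 synthetases were moderately abundant and had no common direction. Their levels ranged from 5.25 RPKM (HARS) to 39.1 (GARS) with empty vector, from 6.76 (HARS) to 32.5 (KARS) with wild-type THG-1 and from 3.50 (HARS) to 52.2 (AARS) with S264A. The sum over the 18 was 375, 368 and 408 RPKM, and the median 18.4, 18.9 and 18.2 RPKM. Between wild type and empty vector none of the 18 was counted as higher or lower, against 11.0% and 6.72% of all genes. Their log2 differences ran from -0.53 for GARS to 0.31 for HARS, with a median of 0.05 that was -0.20 with upper-quartile scaling, -0.10 with scaling to an equal sum and -0.08 in the quantile-normalised columns. Upper-quartile scaling moved the median of all genes in that comparison from -0.01 to -0.22, so that the synthetases' median stayed near that of all genes. Between S264A and empty vector 2 of the 18 were higher and 1 lower, against 8.56% and 3.97% of all genes. Between S264A and wild type 1 was higher and 2 were lower, against 6.65% and 7.13%.

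AARS, which charges alanine, was at 31.8 RPKM with empty vector, 29.6 with wild-type THG-1 and 52.2 with S264A. The S264A line was high by itself, at 1.64 times (1.57 to 1.72) the empty-vector and 1.76 times (1.66 to 1.87) the wild-type level. Its log2 difference from empty vector was 0.70, and 0.50 with upper-quartile scaling. From wild type it was 0.80, and 0.85 to 0.92 with the 3 other normalisations. KARS, which encodes the lysyl enzyme of cytosol and mitochondria, was at 28.0, 32.5 and 47.1 RPKM. It was at 1.69 times (1.60 to 1.77) the empty-vector level with S264A, a log2 difference of 0.73 that was 0.53 with upper-quartile scaling. Against wild type the ratio of 1.45 (1.36 to 1.54) was under the threshold, and past it in the quantile-normalised columns (0.64) and with equal-sum scaling (0.63).

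Other synthetases were lowest in the S264A line. LARS, which charges leucine, was at 11.2, 8.24 and 5.89 RPKM, the S264A line at 0.524 times (0.481 to 0.570) the empty-vector level and 0.715 times (0.645 to 0.792) the wild-type level. Wild-type THG-1 lay between both, at 0.733 times (0.678 to 0.791) empty vector. NARS, which charges asparagine, was at 30.2, 32.3 and 20.1 RPKM, and S264A was at 0.621 times (0.576 to 0.670) the wild-type level. Its log2 difference of -0.66 from wild type was -0.55 with scaling to an equal sum and -0.53 in the quantile-normalised columns. Against empty vector NARS stood just short of the threshold, at -0.57. HARS, which charges histidine, was at 5.25, 6.76 and 3.50 RPKM, 1.29 times (1.18 to 1.41) the empty-vector level with wild type and 0.518 times (0.458 to 0.585) the wild-type level with S264A. VARS, which charges valine, was likewise highest with wild-type THG-1 and lowest with S264A, at 12.8, 15.6 and 10.9 RPKM, under the threshold in each comparison.

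Both HARS and KARS share their locus with other genes. In GENCODE release 29, HARS is overlapped on the opposite strand by HARS2, its mitochondrial counterpart, and by WDR55, and KARS by TERF2IP, which encodes a telomere protein. HARS2 was at 5.58, 5.55 and 4.001 RPKM and WDR55 at 5.04, 6.46 and 4.05 RPKM, both lowest with S264A as HARS was. TERF2IP was at 4.75, 5.60 and 8.86 RPKM, ranked over the lines as KARS was. The sources used here do not say whether the counting used strand, and without strand reads from overlapping genes cannot be told apart. The same holds for DDIT3 and MARS, which overlap each other, for ATF5 and NUP62 (13.5, 15.7 and 14.7 RPKM) and for WARS and WDR25 (1.38, 1.64 and 2.03 RPKM). It also holds for SLC7A11 and SLC7A11-AS1 (0.314, 0.178 and 0.556 RPKM), which ranked over the lines as SLC7A11 did. DDIT3 is overlapped by MBD6 as well (7.38, 6.59 and 7.33 RPKM), and YARS by S100PBP (2.55, 1.38 and 1.85 RPKM). Some other members have such overlaps too. The annotation the authors counted with may differ from this release.

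**Figure D3:**
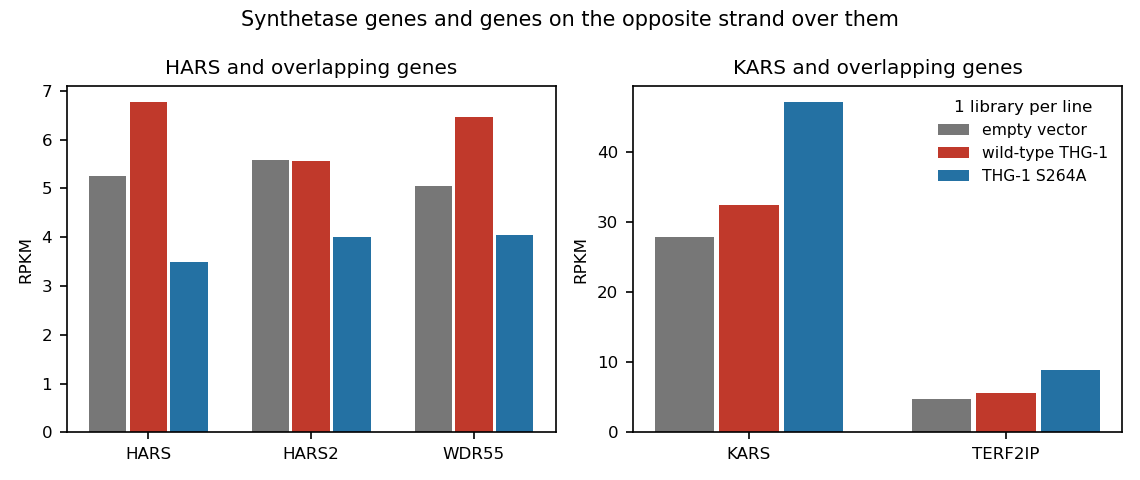
RPKM of HARS and KARS and of the genes annotated on the opposite strand over them, with 1 bar per line (grey, empty vector; red, wild-type THG-1; blue, S264A) and 1 library per line. HARS2 and WDR55 are lowest with S264A, like HARS, and TERF2IP is highest with S264A, like KARS.

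IARS (isoleucine) was at 32.2, 28.7 and 41.6 RPKM and WARS (tryptophan), a known interferon-induced gene, at 29.3, 32.1 and 41.6 RPKM, both highest with S264A and under the threshold. IARS passed it against wild type, at 0.63, in the quantile-normalised columns and with equal-sum scaling. GARS (glycine) was highest with empty vector, at 39.1, 26.7 and 31.2 RPKM, and its ratio of 0.684 (0.644 to 0.725) between wild type and empty vector was the lowest among the synthetases, past the threshold with each of the 3 other normalisations. RARS (arginine) was at 15.8, 14.6 and 12.4 RPKM and QARS (glutamine) at 17.2, 17.8 and 15.4 RPKM. MARS (methionine) was at 13.8, 17.0 and 17.2 RPKM, lower with empty vector than in either THG-1 line. DARS (aspartate) stood at 13.5, 11.4 and 13.5 RPKM, and EPRS, a fused enzyme for glutamate and proline, at 32.2, 28.0 and 31.3 RPKM, both lowest with wild-type THG-1. TARS (threonine) was at 23.0, 25.7 and 24.4 RPKM.

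CARS (cysteine), SARS (serine) and YARS (tyrosine) were the flattest synthetases. CARS was at 7.77, 8.07 and 8.31 RPKM, SARS at 19.6, 19.9 and 19.2, and YARS at 12.7, 13.2 and 12.6. In these 3 genes all ratios between lines had counting intervals that included 1. For 9 of the 18 synthetases no ratio had an interval that included 1. Counting error alone is small at these depths, and no value here bears on the variation between cultures.

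The synthetases that sit in the cytosolic multisynthetase complex (DARS, EPRS, IARS, KARS, LARS, MARS, QARS and RARS) did not share a direction either. Between S264A and empty vector their log2 differences ran from -0.83 for LARS to 0.73 for KARS. The median was -0.02 for these 8 and for the other 10. The remaining subunits and the phenylalanine enzyme, taken from a list of related genes, had no member past the threshold in any comparison. Between wild type and empty vector 11.0% of all genes were higher and 6.72% lower. With S264A these shares were 8.56% and 3.97% against empty vector, and 6.65% and 7.13% against wild type. With 5 genes in the list, nothing is read from this. FARSA and FARSB, which encode the phenylalanine enzyme, were at 25.4, 35.8 and 28.1 RPKM and at 12.1, 11.7 and 12.2 RPKM. The scaffold genes AIMP1, AIMP2 and EEF1E1 were at 6.81 to 9.17, 17.3 to 18.4 and 3.35 to 4.23 RPKM over the lines.

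Enzymes of serine and asparagine synthesis differed between lines in different directions. PHGDH, the first enzyme of serine synthesis, was at 28.2 RPKM with empty vector, 17.1 with wild-type THG-1 and 19.5 with S264A. Both THG-1 lines were low, at 0.606 times (0.580 to 0.634) and 0.692 times (0.664 to 0.720) the empty-vector level, and PHGDH was the only member counted as lower between wild type and empty vector. PSAT1, the next enzyme of the pathway, was at 38.0, 38.2 and 55.1 RPKM and thus highest with S264A. Its ratio of 1.45 (1.36 to 1.54) to empty vector was under the threshold. PSPH, the last enzyme of the pathway, was at 9.89, 7.11 and 7.46 RPKM, ranked over the lines as PHGDH was.

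ASNS, which makes asparagine and is a classic ATF4 target, was at 5.33, 3.72 and 6.995 RPKM. It was lowest with wild-type THG-1, where the ATF4 transcript was highest, at 0.698 times (0.596 to 0.814) the empty-vector level. S264A stood at 1.31 times (1.16 to 1.48) empty vector and at 1.88 times (1.59 to 2.23) wild type. ASNS was the only enzyme counted as higher in the comparison of S264A with wild type, and none was counted as lower. Of all genes in that comparison, 6.65% were higher and 7.13% lower. SHMT2, a mitochondrial serine hydroxymethyltransferase, was at 20.6, 24.6 and 20.2 RPKM and was the lowest enzyme in that comparison, with a ratio of 0.821 (0.762 to 0.883).

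MTHFD2, a mitochondrial enzyme of the folate pathway, was at 7.03, 10.01 and 9.58 RPKM. Both THG-1 lines were above empty vector, at 1.43 times (1.29 to 1.57) and 1.36 times (1.24 to 1.503), under the threshold. ALDH1L2, a mitochondrial formyltetrahydrofolate dehydrogenase, was at 0.139, 0.0831 and 0.0587 RPKM on 38, 9 and 7 reads and entered no comparison. It was the only one of the 39 members below 1 RPKM in every line. The enzymes' median log2 difference was -0.21 between wild type and empty vector and 0.12 between S264A and wild type. It was 0.16 between S264A and empty vector, and -0.03 there with upper-quartile scaling or without a filter.

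On the deposited RPKM the 5 transporters were each highest with S264A, as 16 of all 39 members were, these 5 included. The share of all genes that were highest with S264A was not computed, so nothing is read from this count. SLC7A5, the exchanger of large neutral amino acids, was at 252, 227 and 280 RPKM and was the most abundant member in every line. S264A was at 1.11 times (1.09 to 1.13) the empty-vector level and wild type at 0.900 times (0.883 to 0.918). SLC3A2, the heavy chain that pairs with SLC7A5 and with SLC7A11, was at 53.4, 49.7 and 62.1 RPKM. Upper-quartile scaling moved the SLC7A5 difference between S264A and empty vector from 0.15 to -0.05 (log2). Reads of SLC7A5 can be shared with its pseudogene SLC7A5P1, listed at 3.89, 5.996 and 4.12 RPKM.

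SLC7A11, the cystine and glutamate exchanger that supplies glutathione synthesis, was at 4.66, 4.38 and 7.37 RPKM. Only S264A stood apart, at 1.58 times (1.46 to 1.72) the empty-vector level and 1.68 times (1.51 to 1.87) the wild-type level. On the RPKM + 1 scale the difference from empty vector was 0.57, just short of the threshold, and that from wild type 0.64, just past it. SLC7A1, the transporter of arginine and lysine, was at 23.5, 33.7 and 38.4 RPKM. Both THG-1 lines were above empty vector, wild type at 1.44 times (1.37 to 1.498) and S264A at 1.63 times (1.57 to 1.70), a log2 difference of 0.68 that was 0.49 with upper-quartile scaling. The ratio of S264A to wild type was 1.14 (1.09 to 1.19). SLC38A2, a transporter of small neutral amino acids, was at 26.8, 31.3 and 36.2 RPKM, under the threshold in every comparison.

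The transporters' median log2 difference was -0.07 between wild type and empty vector (0.06 with a filter at 5 RPKM), 0.42 between S264A and empty vector and 0.30 between S264A and wild type. For the latter 2 the range over the alternatives was 0.22 to 0.43 and 0.29 to 0.42, against medians of all genes of 0.02 in both. Most single members stayed under the 1.5-fold threshold. In each of these comparisons 1 of the 5 transporters was counted as higher, against 8.56% and 6.65% of all genes. SLC7A1 in the first was under the threshold with upper-quartile scaling, and SLC7A11 in the other, at 0.40, with a pseudocount of 5.

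In each single comparison the shares of members counted as higher or lower were near those of all genes. Between wild type and empty vector 5 of the 38 members compared were counted as higher (13.2%) and 1 as lower (2.63%), against 11.0% and 6.72% of all genes. Between S264A and empty vector the members were 4 (10.5%) and 1 (2.63%), against 8.56% and 3.97%. Between S264A and wild type they were 3 (7.89%) and 4 (10.5%), against 6.65% and 7.13%. The members' median log2 differences were 0.06, 0.09 and 0.03, beside -0.01, 0.02 and 0.02 for all genes. The first turned to -0.17 and the second to -0.09 with upper-quartile scaling, which put the median of all genes at -0.22 and -0.15. Over the 3 lines together, the highest level was at least 1.5 times the lowest (on RPKM + 1) for 14 of 38 members (36.8%) and for 27.3% of 12379 genes, with median spreads of 1.40 and 1.31.

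The split of all counted genes depended on the scale. The higher share of counted genes was 62.1% between wild type and empty vector, and 30.9% with upper-quartile and 42.4% with equal-sum scaling. Between S264A and empty vector it was 68.3%, and 39.5% with upper-quartile scaling. Between S264A and wild type it was 48.3%, and 62.6% with equal-sum scaling. No member that was counted as higher or lower turned its sign under any of the alternatives. Among the 12 members with the TGATGNAA core, 1, 2 and 2 were counted as higher in the same order of comparisons, and 0, 0 and 1 as lower. Among the 19 with windows but no core, 4, 2 and 0 were counted as higher and 1, 0 and 3 as lower. Of all genes, 11.0%, 8.56% and 6.65% were counted as higher and 6.72%, 3.97% and 7.13% as lower, and at these numbers nothing is read from the split by core.

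**Figure D4:**
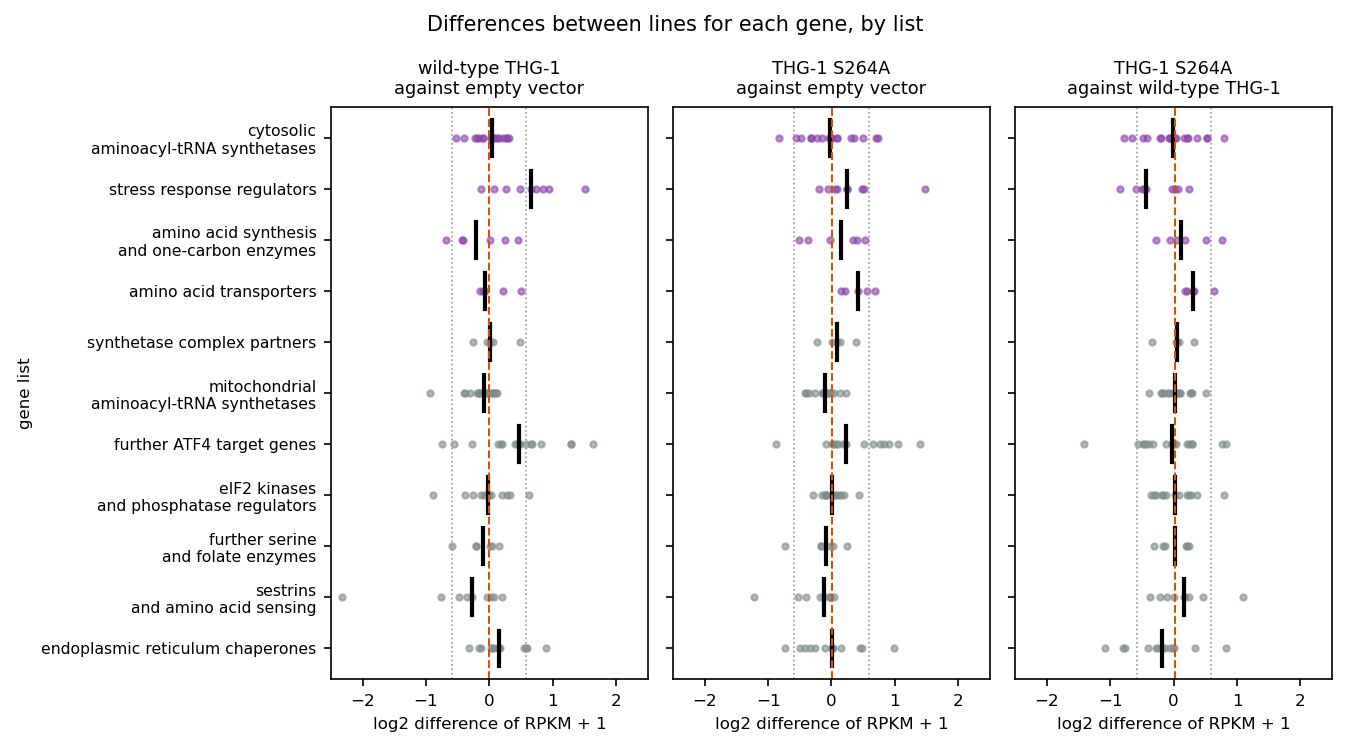
Log2 difference of RPKM + 1 for each gene at or above 1 RPKM (points), by list, in 3 panels for the 3 comparisons; purple lists are the 4 groups described above and grey lists are related genes. Black ticks mark each list's median, the dashed line the median of all genes compared and dotted lines the 1.5-fold threshold; the regulators' median lies at 0.65 in the left panel and at -0.43 in the right one.

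Further ATF4 target genes, a list of 23 genes that are no members, included genes that were high with wild-type THG-1, with S264A or with both. Between wild type and empty vector 6 of the 17 compared were higher (35.3%) and 1 lower (5.88%), against 11.0% and 6.72% of all genes, with a median of 0.47 (0.23 to 0.53 over the alternatives). GDF15, a secreted stress cytokine, was at 1.12, 5.57 and 1.47 RPKM, 4.97 times (3.74 to 6.65) the empty-vector level with wild type and 0.264 times (0.183 to 0.373) the wild-type level with S264A. PPP1R15A, which encodes the phosphatase subunit GADD34 that reverses eIF2 phosphorylation, was at 6.39, 17.1 and 12.8 RPKM. Both THG-1 lines were high, at 2.67 times (2.39 to 2.98) and 2.00 times (1.79 to 2.25). SLC6A9, a glycine transporter gene, was at 4.49, 12.5 and 8.72 RPKM, and the wild-type level was 2.77 times (2.51 to 3.07) that of empty vector. Between S264A and empty vector 6 of the 16 compared were higher (37.5%) and 1, the mTORC1 inhibitor gene DDIT4, was lower (6.25%), against 8.56% and 3.97% of all genes, with a median of 0.22.

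CTH and GPT2, from the same list, had their highest level in the S264A line. CTH, which encodes cystathionine gamma-lyase, was at 0.840, 1.76 and 3.87 RPKM on 65, 54 and 131 reads. It was 4.61 times (3.40 to 6.30) the empty-vector level and 2.20 times (1.59 to 3.08) the wild-type level with S264A. GPT2, a mitochondrial alanine aminotransferase, was at 3.34, 6.62 and 8.01 RPKM, and S264A was at 2.40 times (2.16 to 2.67) the empty-vector level, while its difference from wild type was under the threshold. Between S264A and wild type 2 of the 17 genes compared were higher (11.8%) and 1 lower (5.88%), against 6.65% and 7.13% of all genes, and the median was -0.02. This median was 0.02 in the quantile-normalised columns and with upper-quartile scaling, 0.06 with equal-sum scaling, and -0.22 over the 12 genes left by a filter at 5 RPKM.

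The 17 mitochondrial synthetases differed little. Between wild type and empty vector 1 was counted as lower and none as higher, against 6.72% and 11.0% of all genes. In the other comparisons none was counted in either direction. Of all genes, 8.56% were higher and 3.97% lower between S264A and empty vector, and 6.65% and 7.13% between S264A and wild type. The medians were -0.09, -0.10 and 0.02. The last of these was -0.0040 in the quantile-normalised columns. Of 9 further serine and folate enzymes 6 were compared. SHMT1, the cytosolic counterpart of SHMT2, was at 11.9, 10.1 and 11.7 RPKM, and MTHFD1, a trifunctional cytosolic folate enzyme, at 23.5, 24.2 and 28.0 RPKM, both under the threshold in every comparison.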

How the data were processed

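RNA sequencing data of 3 HaCaT lines (1 library each) were used. Per the file headers, the authors deposited expression values and normalised expression values for each library. The first are RPKM as the authors deposited them, a unit that their steps per read and gene length bear out and that the name of the deposited table gives. The second are a normalised signal deposited by the authors. Their sorted values equalled the mean of the 3 libraries' sorted RPKM (largest deviation 6.67e-06), as quantile normalisation gives. The genome build was hg19, per the submitters' processing notes. Alignment and counting software, annotation and strand setting were not given in the sources used here. Members and gene lists were chosen with earlier results of these data known.

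Where a symbol had several rows (234 of 55773), the row with the highest mean was kept. Differences are log2((RPKM a + 1)/(RPKM b + 1)), a scale that compresses changes of weakly expressed genes. Genes entered a comparison when either library reached 1 RPKM. A fold of at least 1.5 was counted as higher or lower. Depths were recovered from 1-exon genes, and whole reads from lengths at which all 3 libraries' values came out whole within 0.001 reads. Of these lengths the one nearest to GENCODE release 29 was used, which was the GENCODE length itself for 27 of the 39 members. A wrong multiple would change only the width of an interval. Ratios carry exact Clopper-Pearson 95% intervals (scipy 1.17.1), which cover counting error only and treat reads as independent. Reads are not independent molecules, so the intervals may be too narrow even for counting error. The scripts were tested on simulated data. All 39 members are named, with ratios and intervals for those past the threshold, for the highest and lowest of each role and for ATF4, ATF5 and DDIT3. At most 5 related genes per comparison are named by size, in the results and the observations. Other related genes named were chosen after their values were seen, and a few genes that the rule names are not reported here. The 7 alternatives are pseudocounts of 0.1 and 5, no filter, a filter at 5 RPKM, the quantile-normalised columns, and scaling to the same upper quartile or sum. The upper quartile was taken in each library over its own genes above 0 RPKM. Rows above 0 numbered 23557 with empty vector, the deepest library, 20992 with wild-type THG-1 and 21773 with S264A. The quartiles thus rest on unlike sets of genes, and how far depth moved them was not tested.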

Additional observations from a re-analysis of the deposited data

How the results depend on the processing

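With 1 library per line no result could be checked on replicates, and no paired analysis was possible because each group holds 1 library. Of 105 values recomputed under the 7 alternatives (counts and medians over all 38 members compared, and counts over all genes), 63 stayed within 1.5 times (counts) or 0.1 (medians) of the reported value and 42 moved. The cause of a move was not tested, except that a filter and a pseudocount act by construction on low genes. Without a filter none of these values moved. With a filter at 5 RPKM, those that moved were the counts over all genes, to 773 higher and 334 lower between wild type and empty vector (1319 and 806 as reported), 524 and 219 between S264A and empty vector (1028 and 477), and 314 and 490 between S264A and wild type (802 and 860). With a pseudocount of 0.1, all genes went to 1442 lower between wild type and empty vector, to 1550 higher and 850 lower between S264A and empty vector, and to 1423 higher between S264A and wild type, and members lower between S264A and empty vector went from 1 to 2. With a pseudocount of 5, all genes went to 516 and 160, 314 and 87, and 144 and 292 in the same order. Members went to 2 higher between wild type and empty vector (5 as reported), 0 lower between S264A and empty vector, and 1 higher and 0 lower between S264A and wild type (3 and 4 as reported). ATF5, CHAC1 and STC2 in the first comparison, LARS in the second, and HARS, NARS, ATF5, STC2, ASNS and SLC7A11 in the last were then under the threshold. In the quantile-normalised columns, members went to 2 lower in both comparisons with empty vector (1 as reported) and to 6 higher between S264A and wild type, and the median between wild type and empty vector to -0.058. With upper-quartile scaling, all genes went to 843 higher and 1884 lower between wild type and empty vector and to 670 and 1028 between S264A and empty vector. Members went to 3 higher and 5 lower with a median of -0.17, and to 1 higher and 4 lower with a median of -0.086. With equal-sum scaling, all genes went to 1344 lower between wild type and empty vector. Members went to 2 lower in each of the 3 comparisons and to 6 higher between S264A and wild type, with medians of -0.079 between wild type and empty vector and 0.13 between S264A and wild type. Medians of the role lists rest on fewer genes and also moved by over 0.1. Without a filter, that of the enzymes went from -0.21 to -0.07 between wild type and empty vector and from 0.16 to -0.03 between S264A and empty vector. With a filter at 5 RPKM, that of the regulators went from 0.24 to 0.48 between S264A and empty vector, and that of the transporters from -0.07 to 0.06 between wild type and empty vector.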

Other observations

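The gene with the largest difference in the related lists was SESN3. SESN3, which encodes another inhibitor of mTORC1, was at 5.31 RPKM with empty vector, 0.257 with wild-type THG-1 (34 reads) and 1.69 with S264A. The wild-type level was 0.0485 times (0.0335 to 0.0681) and the S264A level 0.319 times (0.278 to 0.364) that of empty vector, and S264A was at 6.57 times (4.58 to 9.70) wild type. SESN1 was at 1.07, 0.475 and 1.03 RPKM, and SESN2 differed by less than counting error between all lines. Among the kinases of eIF2, EIF2AK1 was at 22.5, 11.7 and 21.2 RPKM, while EIF2AK2, EIF2AK3 and EIF2AK4 stood at 10.2 to 11.5, 2.07 to 2.18 and 7.56 to 9.45 RPKM.

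Endoplasmic reticulum chaperone genes had median log2 differences of 0.15, 0.01 and -0.18 in the 3 comparisons. The first was -0.11 with upper-quartile scaling and -0.01 with equal-sum scaling, and the second -0.20 and -0.04, and -0.09 in the quantile-normalised columns. Of the 13 genes, 2 (HYOU1 and DNAJB9) were counted as higher between wild type and empty vector and none as lower. Between S264A and empty vector 1 was higher and 1 lower, and between S264A and wild type 1 was higher and 3 were lower. The shares of all genes were 11.0% and 6.72%, 8.56% and 3.97%, and 6.65% and 7.13% in the same order. HSPA5, which encodes BiP, was at 109, 111 and 111 RPKM. HERPUD1, a gene of protein degradation at the endoplasmic reticulum, was at 3.37, 3.91 and 7.68 RPKM, and S264A was at 2.28 times (2.00 to 2.60) empty vector and 1.96 times (1.66 to 2.33) wild type. SDF2L1 was at 13.9, 21.4 and 9.60 RPKM, and S264A was at 0.449 times (0.367 to 0.549) wild type, so that the S264A line was high for HERPUD1 and low for SDF2L1.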
